A study of Rattus norvegicus with 18 samples.

Results

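Peripheral blood mononuclear cells (PBMC) of 6 rats kept on a high-fat diet (HFD) were compared with those of 6 rats kept on a control low-fat diet (LFD), on 12 of the 18 arrays of the series. Members were the arrays titled as HFD replicates 1 to 6 and as LFD replicates 1 to 6. One further array carries an HFD title but a high-protein diet (HPD) source name, and it was left out of the comparison and counted with the 6 HPD arrays wherever those are given. All animals were male Wistar rats that began their diet at 2 months of age and stayed on it for 4 months. The LFD supplied 70% of energy as carbohydrate, 10% as fat and 20% as protein. The HFD supplied 20% as carbohydrate, 60% as fat and 20% as protein, and 37% of its fat was saturated, 46% monounsaturated and 17% polyunsaturated. The HPD supplied 45% as carbohydrate, 10% as fat and 45% as protein. LFD rats ate freely, and HFD rats were given the amount of food that matched the energy the LFD group had eaten on the day before. The groups thus differed in diet composition and in access to food, and the 2 cannot be told apart here. Blood came from a leg vein after a fast of 14 h and the mononuclear cells were separated on a Ficoll gradient.

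PBMC are the lymphocytes and monocytes of blood, with natural killer (NK) cells and a few dendritic cells. In a fast, fatty acids enter mitochondria through carnitine palmitoyltransferase 1 (Cpt1a) and are shortened by beta-oxidation, and many of these genes are induced by fatty acids through PPAR receptors. Dietary carbohydrate, acting through insulin, Srebf1 and Mlxipl (ChREBP), drives the genes of fatty acid synthesis, while cholesterol synthesis answers to sterol shortage through Srebf2. Blood cells carry these same pathways beside their immune programmes, which is why they have been used as an accessible readout of diet.

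Each array held Cy5-labelled RNA of one rat against a pool of Cy3-labelled samples shared by all arrays, and a level below is log2 of the Cy5 over the Cy3 signal, so 0 means the level of the pool. A difference is the mean level in HFD minus that in LFD, with its standard error (SE) from the fit, over 6 arrays per diet unless stated. Of 41012 probes, 24256 passed the filter, which asked for a Cy5 signal flagged as clearly over background on 6 or more of the 12 arrays, and between 53.1% and 63.5% of probes on an array were well above background. Markers of the named cells were measured throughout: Cd3d, Cd3e, Cd4 and Cd8a for T cells, Cd79b and Ms4a1 for B cells, Cd14 and Csf1r for monocytes and Ncr1 for NK cells were well above background on all 12 arrays. So were Ppbp and Pf4 of platelets and Hbb and Alas2 of red cell precursors, which are not mononuclear leukocytes. S100a8 of the neutrophil list was too, but it is not specific to neutrophils. The arrays of 2 LFD rats stood apart from the rest: LFD 2 and LFD 6 lay at opposite ends of the first principal component, which held 36.3% of the variance, and their levels correlated at -0.521 over all probes. The labels give Cy5 for the sample on every array, so the direction of the ratios was kept. HFD 1 and HFD 6, on different slides, had the highest correlation of any pair, at 0.64. The next highest was 0.476, between LFD 1 and HFD 2. Why HFD 1 and HFD 6 were alike was not tested. The median SD of a probe over arrays was 0.40 in LFD, 0.27 in HFD and, without LFD 2 and LFD 6, 0.28 in LFD.

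**Figure D1:**
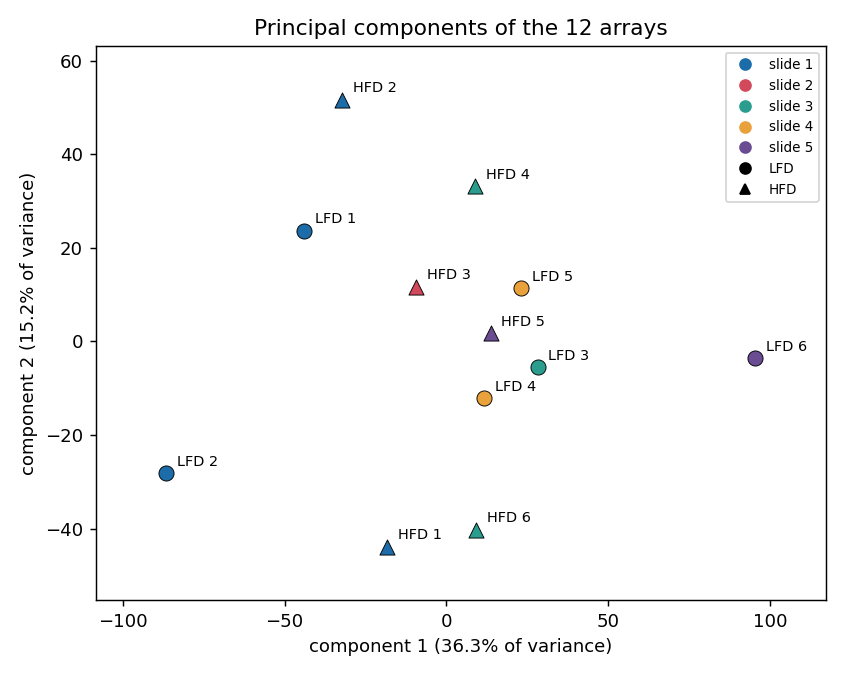
Principal components 1 and 2 of the 12 arrays (24140 probes with a value on every array), each point 1 rat, coloured by slide, circles LFD and triangles HFD. LFD 2 and LFD 6 mark both ends of component 1, and the 2 diets are mixed along both axes.

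No probe differed between the diets after adjustment for the number of probes. With limma and Benjamini-Hochberg adjustment, 0 of 24256 probes had an adjusted p under 0.05 (0%), and the lowest adjusted p was 0.622. Without adjustment, 431 probes (1.78%) had p under 0.05, where chance alone gives 1212.8. Of these, 153 (0.631% of probes) were higher in HFD and 278 (1.15%) were lower, while over all probes 51.4% of differences were above 0 and 48.6% below. With normexp background correction and loess, 172 were higher and 198 lower. In data simulated on the same 24256 probes, the test recovered 52% of 100 probes shifted by 1 log2 unit and 5% of 100 shifted by 0.5, with 5 false calls. The simulated noise was independent between probes and had the same spread in both diets. The real arrays shared variation between probes and spread more in LFD, so these rates are not the power of the test on the real arrays. The values that follow are therefore descriptions, none of them a called change, and every gene named by symbol has an adjusted p of 1 over all probes. Collapsed to 10988 genes with a symbol, each by its brightest probe, 216 had p under 0.05 unadjusted (1.97%), 52 higher in HFD (0.473%) and 164 lower (1.49%). The median difference over all genes was -0.01, with 47.8% of genes above 0 and 52.2% below.

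The levels of the 6 HFD and the 6 LFD rats did not overlap for 18 of the 24140 probes measured on all 12 arrays (0.0746%), 9 higher (0.0373%) and 9 lower (0.0373%) in HFD. By gene, on its brightest probe, this was true of 8 of 10932 (0.0732%). Synrg, Celf5 and Tmc5 were above, and Ugt1a6, Fem1a, Klhdc4, Itgb7 and Ptms below, in every HFD rat. Probes of Dennd6a (higher) and Fryl (lower) that were not the brightest of their gene did not overlap either. Synrg encodes gamma-synergin, a partner of the AP-1 clathrin adaptor in sorting between the trans-Golgi network and endosomes. Its level ran from -0.83 through a median of -0.39 to -0.18 in LFD and from -0.10 through 0.16 to 0.54 in HFD. The difference was 0.64 ± 0.16 (SE; 1.56-fold, limma adjusted p = 1). Within the 3 slides that held both diets (1, 3 and 5) it was 0.40, 0.47 and 1.37. As the diets did not overlap, these values had to be positive. Of the 12 arrays, slide 1 held LFD 1 and LFD 2 with HFD 1 and HFD 2. Slide 3 held LFD 3 with HFD 4 and HFD 6, and slide 5 held only LFD 6 and HFD 5. Within-slide values here and below thus rest on few rats. The probe for Synrg lies at chr10:72281253-72281312 of the rn4 build. Celf5, an RNA-binding protein, had a smaller difference of 0.24 ± 0.09 with a narrow spread, from -0.16 to -0.03 in LFD and from 0.08 to 0.23 in HFD. Tmc5, well above background on 5 LFD and 3 HFD arrays, had a difference of 0.68 ± 0.21, but with Cy5 alone, without the pool channel, it was -0.49.

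Ugt1a6 encodes a UDP-glucuronosyltransferase that conjugates phenols for excretion, and it had the smallest p among genes lower in HFD. Its level ran from 0.43 through 0.51 to 0.75 in LFD and from -0.28 through 0.13 to 0.22 in HFD. The difference was -0.46 ± 0.11 (SE; LFD 1.38-fold over HFD, limma adjusted p = 1), with -0.76, -0.36 and -0.27 within slides 1, 3 and 5. The lack of overlap fixed these signs as well. Its probe lies at chr9:87041702-87041761 (rn4), in a gene cluster whose members share their last exons, so the signal can include other Ugt1a forms. Fem1a, a substrate receptor of a cullin 2 ubiquitin ligase, stood between -0.07 and 0.44 in LFD and between -0.39 and -0.10 in HFD, a difference of -0.43 ± 0.12. Itgb7, the beta 7 integrin that guides lymphocytes to the gut, did not overlap either, yet its difference was only -0.13 ± 0.09: levels ran from -0.09 to 0.18 in LFD and from -0.17 to -0.10 in HFD. Ptms (parathymosin) differed by -0.11 ± 0.09 and Klhdc4, a kelch-domain protein, by -0.29 ± 0.11. Their second probes, at -0.08 ± 0.17 and -0.25 ± 0.22, were not among the probes without overlap.

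Among the other genes with the smallest p in the higher direction were Wscd1 (difference 0.77 ± 0.21), Tmem50b (0.58 ± 0.16), Tceal9 (0.59 ± 0.18), Wdr82 (0.60 ± 0.18), Zfp641 (0.44 ± 0.15), Cdh2 (0.75 ± 0.25) and Rec114 (0.96 ± 0.32). Wscd1 and Cdh2 were well above background on 4 LFD and 3 HFD arrays. For Wdr82 the file places the probe on chromosome 14, which is not where RefSeq has the gene, so its identity is uncertain. Tmem50b, a small membrane protein, was well above background on 3 of 6 LFD arrays and on all 6 HFD arrays, with levels from -0.74 to 0.32 in LFD and from 0.03 to 0.54 in HFD. Hsd17b13, a lipid droplet protein best known from liver, belonged to the same group. Its level ran from -0.55 through -0.27 to 0.16 in LFD and from 0.04 through 0.23 to 0.42 in HFD. The difference was 0.45 ± 0.14 (limma adjusted p = 1), with 0.42, 0.52 and 0.49 within slides 1, 3 and 5. In the lower direction, besides Ugt1a6, Fem1a and the enolase family described next, stood Gpr22 (-0.57 ± 0.15), Mybphl (-0.55 ± 0.15), Synb (-0.75 ± 0.20) and Pcdhga9 (-0.47 ± 0.14, but 0.16 with Cy5 alone). The single smallest p of all belonged to a probe with no gene name, for the expressed sequence BQ199802 at chr5:148815181-148815240 (rn4). It stood from -0.72 to -0.43 in LFD and from -0.11 to 0.39 in HFD, a difference of 0.75 ± 0.12 (unadjusted p = 2.57e-05, limma adjusted p = 0.622).

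**Figure D2:**
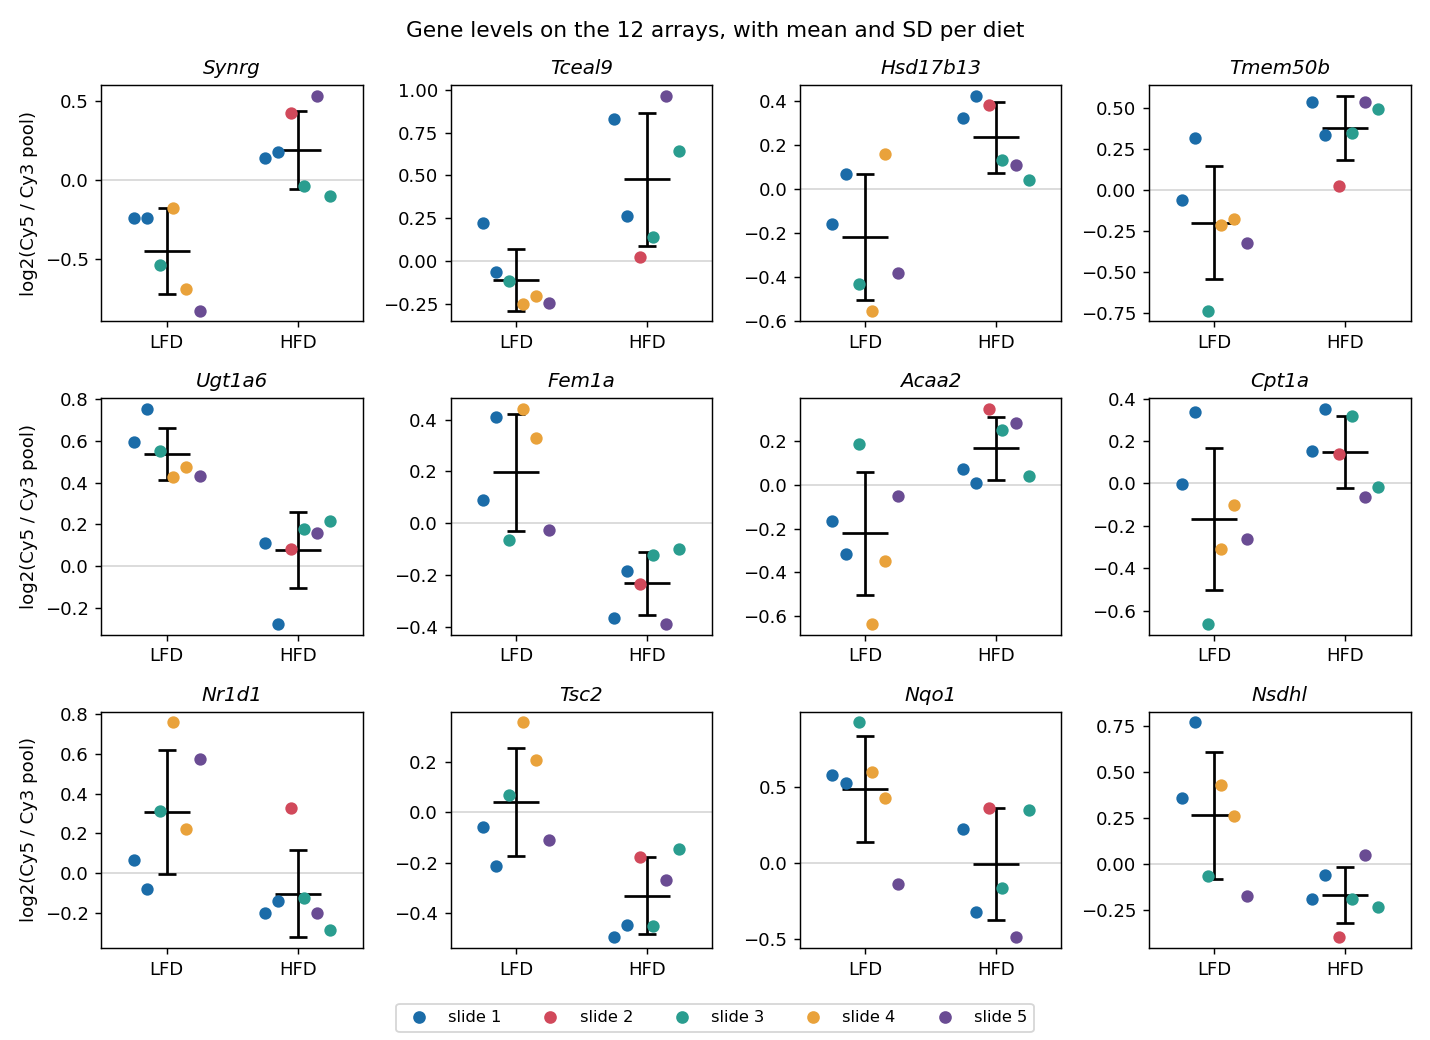
Level of 12 genes in log2 of Cy5 sample over Cy3 pool, each point 1 rat coloured by slide, with the mean and SD of the 6 rats per diet. Synrg, Ugt1a6 and Fem1a do not overlap between diets, the other 9 do, and none of the 12 has a limma adjusted p under 0.05.

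Enolase 1 (Eno1) catalyses the step of glycolysis that makes phosphoenolpyruvate, and the rat genome holds many processed pseudogenes of it. Of the 9 probes matched to Eno1 or an Eno1 pseudogene, all were well above background on the 12 arrays. All 9 were lower in HFD with an unadjusted p under 0.05, as were 1.15% of all probes. Members of the family had been taken up for their small p, so this count is a description and not a test. The differences ran from -0.85 to -0.38, with a median of -0.70. Processed copies of a gene can share its probe sequence, so the 9 probes cannot be counted as independent results. Probe sequences were not used here, and which copies each probe reads was not tested. The probes did not always move as one: on LFD 6 the Eno1 probes read 0.36 and 0.30 while Eno1-ps28, Eno1-ps7 and Eno1-ps15 read -0.85, -0.42 and -0.28. On the brighter Eno1 probe (chr5:167405364-167405424, rn4) levels ran from 0.00 through 0.16 to 0.43 in LFD and from -0.33 through -0.27 to 0.28 in HFD, a difference of -0.38 ± 0.13 (LFD 1.30-fold over HFD, limma adjusted p = 1). The second Eno1 probe, at chr5:167404770-167405180, gave -0.70 ± 0.18.

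The rats did not shift together. In HFD 1, 2, 4, 5 and 6 the median of the 9 probes lay between -0.82 and -0.61, while HFD 3 stood at 0.23, inside the LFD range of -0.16 to 0.59. HFD 3 was also the only HFD array on slide 2, so rat and slide cannot be told apart for it within the HFD. Slide 2 also held HPD 1, HPD 3 and HPD 7, whose medians are given below. Leaving out each of the 11 other arrays in turn gave a median difference of the 9 probes between -0.74 and -0.62, with a lowest limma adjusted p of 0.815. HFD 3 was singled out after its values were seen, and leaving it out, at -0.85 with a lowest limma adjusted p of 0.244, had to widen the difference. Within slides 1, 3 and 5 the median was -0.78, -0.57 and -0.68. The exception within a slide was the Eno1-ps28 probe, at 0.19 on slide 5. The family split the HPD rats as well: HPD 3 and HPD 5 had medians of -0.996 and -1.03, HPD 4 -0.42, and HPD 1, 2 and 7 between 0.01 and 0.36. On the low arrays the pseudogene Eno1-ps9, for instance, stood at -1.03 (HFD 4) and -1.30 (HPD 5), against 0.71 on the highest, LFD 4.

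**Figure D3:**
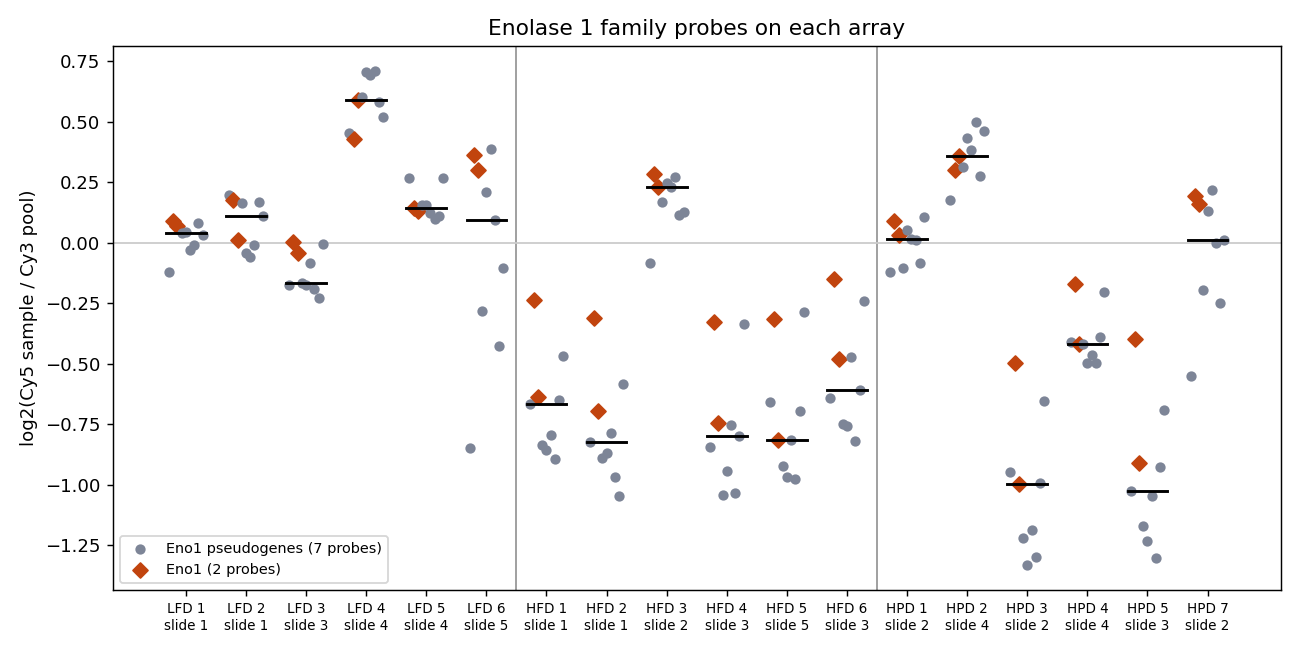
Level of the 2 Eno1 probes (diamonds) and 7 Eno1 pseudogene probes (circles) on all 18 arrays, in log2 of Cy5 sample over Cy3 pool, with the median per array as a bar and the slide under each array. The probes are low together in 5 of 6 HFD rats and in HPD 3 and HPD 5, and near or above 0 in HFD 3.

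Of the 19 other glycolysis genes measured, 16 had a difference below 0 (52.2% of all genes did) and 3 above it, with a median of -0.09 against -0.01 for all genes. With Eno1 the median of the list was -0.10, and it was -0.24 within slide 1, 0.04 within slide 3, -0.09 within slide 5 and -0.03 without slide 1. The mean level of the list was -0.05 in LFD and -0.08 in HFD, and the diets overlapped. Pfkl, the liver-type phosphofructokinase, differed by -0.20 ± 0.12, Pkm, pyruvate kinase, by -0.25 ± 0.26, and Ldha, lactate dehydrogenase A, by -0.12 ± 0.28. Ldha, and Acsl1 and Acly further on, were named after their values were seen. Eno1 was the 1 list member below the unadjusted threshold in the lower direction. Ldhb, lactate dehydrogenase B, was the 1 in the higher direction, at 1.69 ± 0.72, but its rats fell into 2 separate levels: LFD 2, 3, 4 and 5 and HFD 2 lay between -2.73 and -1.88, the other 7 between 0.02 and 1.65. The HPD arrays showed both levels too, from -2.90 to 1.01.

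Upstream sequences are shown for Eno1, for Ldha as a second gene of glycolysis, for Nr1d1 of the clock and for Cpt1a of fatty acid oxidation, because glycolysis and clock genes are known to share short control motifs. They are the 250 bases before the annotated start from RefSeq (GRCr8), read 5′ to 3′ along the gene, with matches to ACGTG, the core of the hypoxia response element, in capitals. ACGTG was searched on both strands, and it lies inside the E-box CACGTG.
Eno1, second of 2 starts, chr5:166003111-166003360, plus strand: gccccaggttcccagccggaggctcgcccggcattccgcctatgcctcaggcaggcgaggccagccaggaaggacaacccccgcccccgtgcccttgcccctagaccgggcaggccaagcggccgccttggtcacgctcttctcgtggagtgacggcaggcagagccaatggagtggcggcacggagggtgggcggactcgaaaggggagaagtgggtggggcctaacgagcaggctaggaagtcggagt
Ldha, chr1:106507842-106508091, plus strand: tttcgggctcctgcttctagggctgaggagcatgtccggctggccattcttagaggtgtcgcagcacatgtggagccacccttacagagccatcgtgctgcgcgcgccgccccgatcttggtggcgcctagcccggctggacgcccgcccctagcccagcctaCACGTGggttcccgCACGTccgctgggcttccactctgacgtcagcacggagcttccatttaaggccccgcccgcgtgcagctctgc
Nr1d1, second of 2 starts, chr10:84229455-84229704, minus strand: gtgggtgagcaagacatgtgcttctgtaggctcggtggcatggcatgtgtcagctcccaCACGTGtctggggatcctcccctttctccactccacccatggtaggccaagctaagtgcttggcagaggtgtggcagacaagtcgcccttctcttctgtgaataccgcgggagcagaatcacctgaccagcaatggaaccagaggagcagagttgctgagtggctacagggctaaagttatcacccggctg
Cpt1a, chr1:209995910-209996159, plus strand: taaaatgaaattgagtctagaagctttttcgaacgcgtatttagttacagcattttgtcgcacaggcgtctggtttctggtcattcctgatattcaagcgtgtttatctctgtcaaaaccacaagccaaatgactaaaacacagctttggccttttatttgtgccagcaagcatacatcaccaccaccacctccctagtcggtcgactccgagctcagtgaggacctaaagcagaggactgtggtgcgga
ACGTG was present in 16.6% of all 33469 windows and in 18.1% of 27457 genes in at least 1 window. It was present in 11 of the 18 glycolysis genes with a sequence, in 2 of 23 fatty acid oxidation genes and in 7 of 15 clock genes. Ldha held it 3 times, counting both strands of its E-box, and neither Eno1 window held it. CACGTG was in 6.2% of all genes and in 4 of 15 clock genes, among them the Nr1d1 window printed. The other Nr1d1 window held ACGTG but not CACGTG. A match describes the letters only.

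Fatty acid oxidation, the pathway that a fat-rich diet feeds, showed no called difference. Of 28 measured members 18 were above 0 (47.8% of all genes were), with a median of 0.05 and a range from -0.27 to 0.39. The median was -0.04 with Cy5 alone, -0.00 in the authors' deposited table and -0.03 within slide 5. One member passed the unadjusted threshold (genome-wide 0.473% in that direction): Acaa2, the mitochondrial thiolase of the last step of beta-oxidation. Its level ran from -0.64 through -0.24 to 0.19 in LFD and from 0.01 through 0.16 to 0.35 in HFD. The difference was 0.39 ± 0.14 (1.31-fold, limma adjusted p = 1). A second Acaa2 probe gave 0.44 ± 0.21. With slide as a block it was 0.19, and within slide 3 it was -0.04. Cpt1a, which controls entry of fatty acids into mitochondria, ran from -0.66 through -0.18 to 0.34 in LFD and from -0.06 through 0.15 to 0.35 in HFD, a difference of 0.31 ± 0.16 (1.24-fold, limma adjusted p = 1), positive within all 3 slides at 0.09, 0.81 and 0.20. Both groups overlapped, and only 1 HFD rat lay above the highest LFD rat.

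None of the other members had an unadjusted p under 0.05. Acsl1, which activates fatty acids, was at 0.34 ± 0.29, Hadh at 0.16 ± 0.10 (its second probe gave -0.10), Acadvl at -0.06 ± 0.16 and Hadha, the trifunctional protein's alpha subunit, at -0.17 ± 0.10. PPAR receptors and targets had 6 of 14 members above 0 and a median of -0.02. Pparg stood at 0.06 ± 0.34 and Ucp2, a mitochondrial carrier of immune cells, at -0.10 ± 0.14. Ppara, well above background on 5 of 12 arrays, Lpl on 4, Lepr on 2 and Pdk4 on 0 did not pass the filter.

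In fatty acid synthesis 13 of 16 measured members were below 0, none at an unadjusted p under 0.05, with a median of -0.11. The median was 0.02 within slide 3, -0.07 with slide as a block and -0.05 without slide 1. It was -0.06 without LFD 4, -0.07 without LFD 2 and -0.07 without HFD 1. The mean difference over members was -0.11, but the median list level of the 6 arrays was -0.04 in LFD and 0.01 in HFD. Mlxipl, the carbohydrate-responsive factor ChREBP, ran from -0.24 through 0.28 to 1.03 in LFD and from -0.38 through 0.01 to 0.28 in HFD, a difference of -0.38 ± 0.22 (limma adjusted p = 1). Acaca, acetyl-CoA carboxylase, was at -0.13 ± 0.10, Fasn, fatty acid synthase, at -0.11 ± 0.11, and Slc25a1, the citrate carrier, at -0.22 ± 0.13. Srebf1, the sterol- and insulin-responsive factor of this pathway, was at -0.11 ± 0.11, and 1 of its 2 other probes gave 0.30 ± 0.28. Acly, ATP-citrate lyase, went the other way at 0.16 ± 0.09, and Scd, stearoyl-CoA desaturase, was at -0.01 ± 0.16 over 5 LFD and 6 HFD arrays.

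The cholesterol metabolism list had 11 of 20 members above 0 and a median of 0.07, which was -0.04 with Cy5 alone. Hmgcs1, an early synthase of the pathway, was at 0.17 ± 0.15, and Srebf2 was at 0.16 ± 0.17, with a second probe at -0.07 ± 0.17. Nsdhl, a sterol dehydrogenase late in cholesterol synthesis, was the 1 member with an unadjusted p under 0.05, and like Nr1d1 and Pdcd1 below it was named after its value was seen. It ran from -0.17 through 0.31 to 0.77 in LFD and from -0.40 through -0.19 to 0.05 in HFD, a difference of -0.43 ± 0.16 (limma adjusted p = 1), which was 0.22 within slide 5. Lipid droplet and lipolysis genes had 6 of 13 above 0, with Lipe, hormone-sensitive lipase, at -0.59 ± 0.34 and Pnpla2, adipose triglyceride lipase, at -0.05 ± 0.23. Lipid uptake and efflux genes had 9 of 15 above 0, with the fatty acid transporter Cd36 at 0.16 ± 0.34 and the cholesterol exporter Abca1 at 0.04 ± 0.18. Slc27a2, a fatty acid transport protein, ranged from -5.34 to 1.46 in LFD and from -5.19 to 0.81 in HFD: LFD 5, HFD 2 and HFD 5 were at -4.55 or below, the other 9 at -0.67 or above, on a probe well above background on every array.

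In mitochondrial energy metabolism, pyruvate dehydrogenase and TCA cycle genes had 14 of 27 members above 0 (median 0.01) and respiratory chain genes 19 of 42 (median -0.01), with no member at an unadjusted p under 0.05 in either. Insulin and adipokine signalling had 12 of 24 above 0 (median 0.00). By brightest probe, its 1 member below the unadjusted threshold was Tsc2 (tuberin), which holds back mTORC1. The glucose transporter Slc2a4 was at -0.525 ± 0.376, and its second probe, at -1.142 ± 0.433, was also below that threshold. Tsc2 ran from -0.22 through 0.00 to 0.36 in LFD and from -0.50 through -0.36 to -0.15 in HFD, a difference of -0.37 ± 0.13 (limma adjusted p = 1), lower in HFD within slides 1, 3 and 5 by values of -0.33, -0.37 and -0.16. Irs2, the insulin receptor substrate, stood at 0.02 ± 0.36, and its 3 other probes were at or below -0.06.

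Among stress and timing genes, Nqo1, a quinone reductase and classical NRF2 target, ran from -0.14 through 0.55 to 0.92 in LFD and from -0.49 through 0.03 to 0.36 in HFD, a difference of -0.49 ± 0.20 (limma adjusted p = 1), but with Cy5 alone it was 0.02. Of the 20 other NRF2 genes, 9 were above 0 and the median was -0.01. Nr1d1 (REV-ERB alpha), a repressor of the clock, ran from -0.08 through 0.27 to 0.76 in LFD. In HFD it ran from -0.29 through -0.17 to 0.33, a difference of -0.41 ± 0.16 (limma adjusted p = 1), negative within all 3 slides. Its 5 low HFD arrays were the same as for enolase, with HFD 3 again the high one at 0.33, and HPD 3 and HPD 5 were low at -0.75 and -0.79. HPD 4, low for enolase, was at 0.12 for Nr1d1. Of the 16 other clock genes 10 were above 0, with Per2, a repressor of the same loop, at 0.25 ± 0.22. ER stress genes had 15 of 22 above 0 (median 0.05), and glucocorticoid response genes 11 of 13 (median 0.17), led by Dusp1, a MAP kinase phosphatase, at 0.63 ± 0.40 and Txnip, which limits glucose uptake, at 0.40 ± 0.21. The glucocorticoid median was 0.09 without LFD 2, 0.10 without HFD 1, 0.09 without HFD 6, 0.04 without slide 1 and -0.05 within slide 5.

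**Figure D4:**
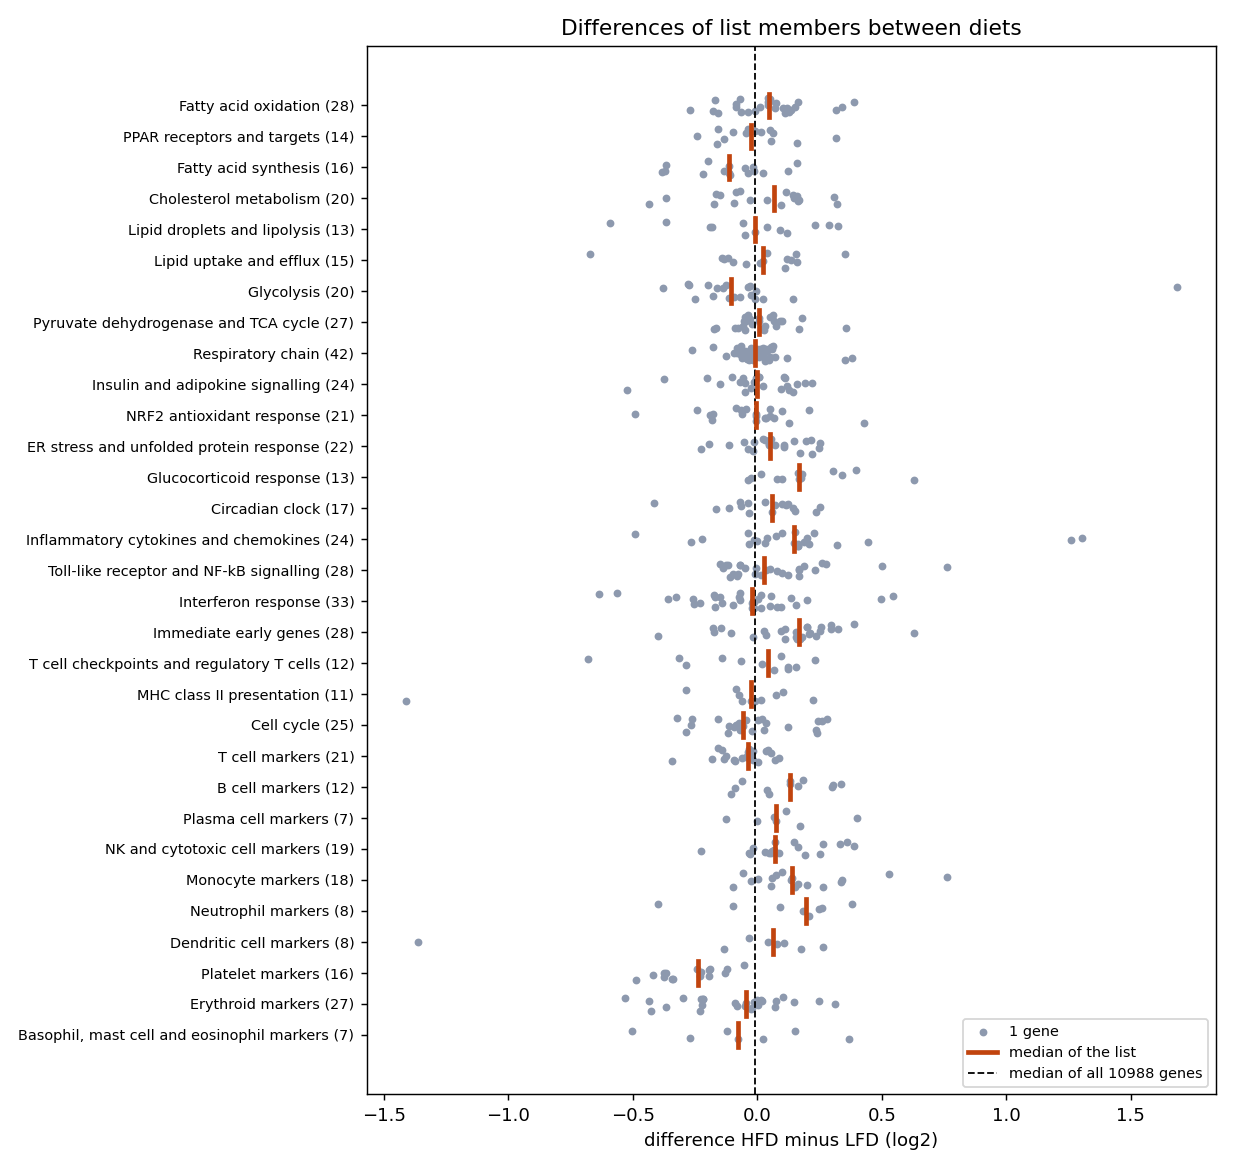
Difference HFD minus LFD in log2 for each measured member (points) of 31 gene lists, with the list median as a bar, the number of members in brackets and the median of all genes as a dashed line. List medians lie between -0.24 (platelet markers) and 0.20 (neutrophil markers), and single genes spread far wider than the medians.

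The list medians depended on single arrays. Leaving out 1 array in turn moved the median of 30 of the 31 lists by over 1.5 times or through 0, and the glycolysis list, between -0.15 and -0.07, was the exception. As the rule is a ratio, a small shift is enough for lists with a median near 0, such as the TCA cycle list at 0.01. The glycolysis list itself lay close to the limit of the rule.

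Inflammatory genes, of interest because diet-induced obesity is known for low-grade inflammation, showed no called difference. Cytokines and chemokines had 17 of 24 members above 0 and a median of 0.15, which was -0.06 within slide 3. Without HFD 1, HFD 2, HFD 6, LFD 4 or LFD 6 it was 0.06, 0.07, 0.07, 0.06 or 0.10. Tnf was at -0.22 ± 0.20, Il1b at 0.23 ± 0.36, Ccl2, a monocyte chemokine, at -0.27 ± 0.44 and Ifng at 0.44 ± 0.29. The widest differences, Cxcl1 at 1.31 ± 1.24 and Cxcl2 at 1.26 ± 0.88, came from LFD ranges that reached down to -6.05 and -4.14. Toll-like receptor and NF-kB genes had 15 of 28 above 0, with Tlr4 at -0.07 ± 0.32, and interferon response genes 12 of 33 (median -0.02), with the antiviral Oas1b at -0.64 ± 0.33. Immediate early genes had 22 of 28 above 0 and a median of 0.17, which was 0.06 without LFD 2 and 0.02 without LFD 2 and LFD 6. In checkpoint and regulatory T cell genes, 7 of 12 were above 0. Pdcd1 (PD-1), an inhibitory receptor of activated T cells, was at -0.68 ± 0.28 (limma adjusted p = 1) on a probe well above background on 3 LFD and 4 HFD arrays, and at 0.33 within slide 3. MHC class II genes had 4 of 11 above 0 and cell cycle genes 10 of 25, with the mitotic kinase Plk1 at -0.26 ± 0.16 and -0.46 ± 0.17 on its 2 probes.

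Cell type marker lists overlapped between the diets in every case. In bulk RNA, fewer cells of a type and less RNA per cell cannot be told apart. Platelet markers had 0 of 16 members above 0 and a median of -0.24, yet their mean level ran from -0.58 to 1.12 in LFD and from -1.90 to 0.91 in HFD. The median was 0.03 without HFD 2, -0.06 without LFD 2 and -0.00 without LFD 2 and LFD 6. It was -0.51 without HFD 1, -0.47 without HFD 6, -0.40 with slide as a block and -0.43 with Cy5 alone. Both its size and its sign thus rested on single arrays. Monocyte markers had 15 of 18 members above 0 and a median of 0.14, with Cd14 at 0.76 ± 0.51, and their mean level ran from -0.37 to 0.35 in LFD and from -0.48 to 0.84 in HFD. The monocyte median was 0.00 without HFD 1, 0.02 without HFD 6, 0.04 without LFD 1, 0.27 without LFD 2 and -0.14 within slide 3. T cell markers had 6 of 21 above 0 (median -0.04), B cell markers 9 of 12 (0.13), NK and cytotoxic markers 15 of 19 (0.07), erythroid markers 10 of 27 (-0.05) and neutrophil markers 6 of 8 (0.20). Leaving out 1 array moved these medians from -0.12 to 0.02 for T cells, from 0.04 to 0.21 for B cells, from -0.04 to 0.20 for NK cells, from -0.19 to 0.08 for erythroid cells and from 0.04 to 0.37 for neutrophils. Without slide 1 the B cell and neutrophil medians were -0.08 and -0.16, and within slide 1 the NK median was -0.30. Plasma cell markers had 5 of 7 above 0, basophil, mast cell and eosinophil markers 3 of 7, and dendritic cell markers 5 of 8. The part of cell composition in the gene differences was tested only through the T cell minus monocyte level as a covariate, under which 0 probes were called and 450 had an unadjusted p under 0.05.

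**Figure D5:**
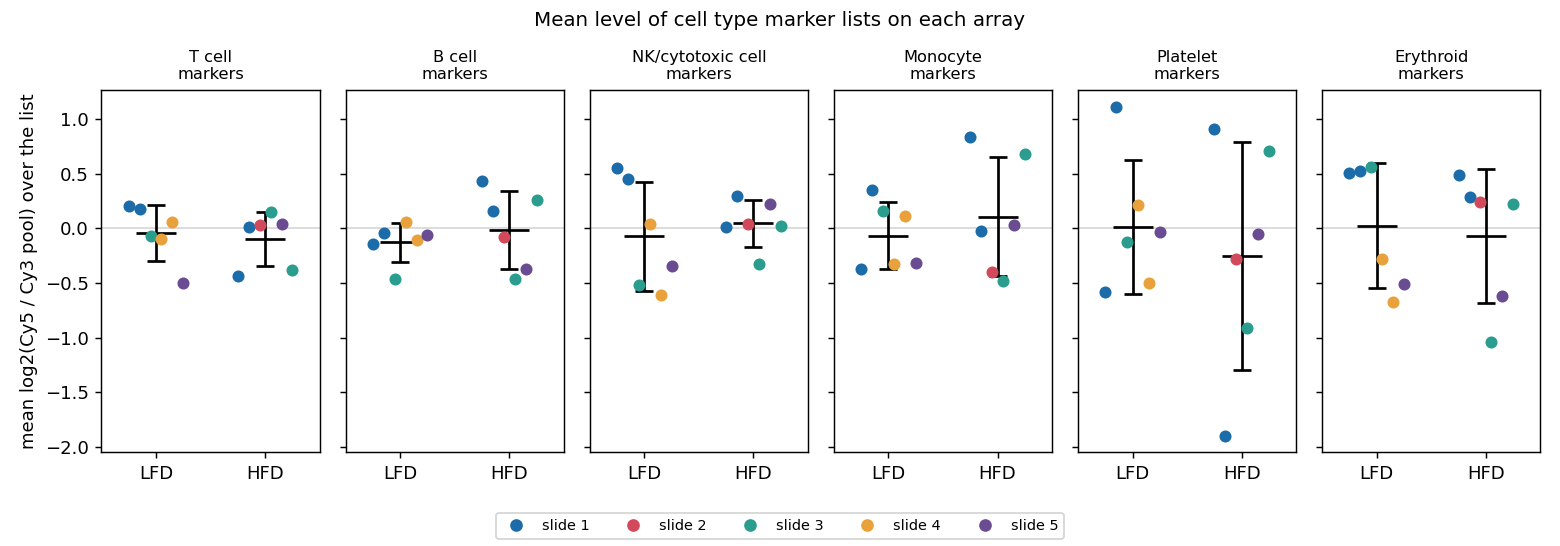
Mean level of 6 cell type marker lists on each array in log2 of Cy5 sample over Cy3 pool, each point 1 rat coloured by slide, with the mean and SD over 6 rats per diet. Diets overlap in all 6 lists, and platelet markers span the widest range, from -1.90 in HFD 2 to 1.12 in LFD 2.

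Set beside the HPD, which kept fat as low as the LFD, the genes named gave differing values. The HPD and HFD comparisons share the 6 LFD arrays, so their differences are not independent, and no overlap between them is drawn. In a fit of all 18 arrays, Synrg was at 0.56 ± 0.19 and Ugt1a6 at -0.38 ± 0.14 in HPD minus LFD, and HFD and HPD differed by 0.09 ± 0.19 for Synrg and -0.08 ± 0.14 for Ugt1a6. Nqo1 was at -0.47 ± 0.18 in HPD minus LFD. Cpt1a was at -0.00 ± 0.15 and Acaa2 at 0.07 ± 0.16 in HPD minus LFD, and their HFD minus HPD differences were 0.32 ± 0.15 and 0.32 ± 0.16. Tceal9 was at 0.01 ± 0.17 in HPD minus LFD and 0.59 ± 0.17 in HFD minus HPD.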

How the data were processed

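RNA of 18 PBMC samples was measured on 2-colour Agilent arrays on 5 slides. The authors deposited scanner output, whose processed intensities are background-subtracted and dye-normalized per the file headers. The submitters' processing notes name Agilent Feature Extraction, version 10.5.1.1. Probe positions are in rn4 per the file headers. The authors' deposited table holds log2 values for 20256 of the probes, with a column median of 8.4 and its centring unknown, and it served as an alternative only. From the intensities, log2(Cy5/Cy3) was taken per non-control spot, spots marked as outliers were left out (116 tested probes then lack an array), and spots of 1 probe were averaged.

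Probes whose Cy5 signal the scanner software flagged as above background on 6 or more of the 12 arrays were tested with limma 3.58.1 in R 4.3.3 (lmFit, eBayes, two-sided), with Benjamini-Hochberg adjustment over all 24256. The test was also run on simulated data that took the mean and spread of each probe from the real arrays. RefSeq names were matched for 21490 probes by accession, symbol, gene ID or synonym, 144 matched several genes and 19378 none. A gene is represented by its kept probe with the brightest Cy5 signal.

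The text names the 10 smallest p and the 5 largest differences (among unadjusted p under 0.05) per direction, every gene whose diets do not overlap, 26 genes fixed for their role, and the 3 smallest p of each of 31 lists, taking the direction of the list's median first. Some genes that the rule takes in are not reported here. Genes outside this rule were named after their values were seen. The comparison, genes and lists were chosen with earlier results of these data known. Slides were a batch: with diet in the model, slide gave 0 called probes and 3538 of 24140 at an unadjusted p under 0.05 (chance 1207), so slide-block and within-slide values were computed. Nothing gives litter or cage. The p-values of the main fit set the diet difference against the spread between arrays, which mixes slide and array variation with that between rats. The number of arrays limits the precision.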

Additional observations from a re-analysis of the deposited data

Results flagged for a closer look

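Within each diet, a value was marked where the highest or lowest of the 6 arrays lay far from the nearest other, by Dixon's ratio. Of 355 groups checked, 29 values were marked, and chance marks about 1 in 20 groups.

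HFD 3 gave 8 of them. It read 0.28 for Eno1 (the other HFD rats at -0.15 or below), 0.17 for Eno1-ps15, 0.25 for Eno1-ps24, 0.23 for Eno1-ps26, 0.27 for Eno1-ps9 and 0.33 for Nr1d1, where it was the high array. For the carnitine transferase Cpt2 at -0.69 and the clock gene Per2 at -0.29 it was the low array.

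LFD 6 gave 9. It was high for the stress sensor Atf6 at 1.26, Cpt2 at 0.57, Edem1 at 0.58, Erg at 1.24 and Hmgcs1 at 0.30. It was low for the respiratory chain genes Cyc1 at -0.75 and Uqcrc1 at -1.05, the kinase Pdk3 at -1.07 and the lipase Pnpla2 at -1.31.

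HFD 2 gave 5: Acaca at -0.26, Clec4f at -2.94, Nfkb1 at 0.42, Ugt1a6 at -0.28 and a mean of -0.31 over the glycolysis list. The rest were single values: Ccl2 at -1.34 in HFD 4, Tmcc2 at -2.40 in HFD 5, Epor at -0.21 in LFD 1, the MHC class II gene RT1-Ba at 3.30 in LFD 2, Eno1-ps9 at 0.71 in LFD 4, and Pcdhga9 at 0.00 and Slc27a2 at -5.34 in LFD 5.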

How the results depend on the processing

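No probe was called under any alternative. The number of probes at an unadjusted p under 0.05, 431 as reported, was 758 with arrays scaled to one spread, 890 with Cy5 alone, 236 in the authors' deposited table, 279 with probes above background on all 12 arrays, 967 with no filter, 1680 without slide 1, 1737 with array weights and 1355 without LFD 2 and LFD 6 together, the last chosen after seeing the data. Leaving out each array in turn gave 334 to 1221, with 1221 without LFD 2 and 1035 without LFD 6. The 18 probes without overlap became 28 with Cy5 alone, 7 in the authors' deposited table, 10 above background on all 12 arrays, 37 with no filter, 1258 without slide 1, 29 with HFD 1 and HFD 6 averaged, 7 with the conflicting array as HFD, 294 without LFD 2 and LFD 6, and 26 to 148 leaving out 1 array (148 without LFD 6); fewer arrays overlap less by construction. The other causes were not tested. Of 39 named genes at an unadjusted p under 0.05, 10 changed sign once: Acaa2 to -0.044 and Pdcd1 to 0.33 within slide 3, Col16a1 to -0.67, Erg to -1.59, Nsdhl to 0.22 and Spetex2g to 0.60 within slide 5, Zfp583 to -0.029 within slide 1, and Nqo1 to 0.02, Pcdhga9 to 0.16 and Tmc5 to -0.49 with Cy5 alone. Of 108 other named genes 83 changed sign at least once, as did all 31 list medians. The replicate block gave 597 probes at an unadjusted p under 0.05 and 0 called. Deviations from the diet means correlated between -0.04 and 0.225 for same-numbered arrays. By these deviations, 1 of 6 LFD arrays matched its own number best, so the values gave no sign that the numbers pair the rats.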

Other observations

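Apart from Ldhb, 9 genes made up the largest differences at an unadjusted p under 0.05 in HFD minus LFD, over 6 rats per diet and with a limma adjusted p of 1 each. Higher in HFD were Col16a1, a collagen chain, at 2.20 ± 0.92 (SE), Defa5, a defensin, at 1.87 ± 0.81, the transcription factor Erg at 1.22 ± 0.43 and the zinc finger gene Zfp583 at 1.04 ± 0.44. LFD levels reached down to -5.08 for Col16a1 and -4.62 for Defa5. Erg was well above background on 3 LFD arrays and Zfp583 on 2. Lower in HFD were Tmcc2 at -1.65 ± 0.53, Clec4f, a lectin of tissue macrophages, at -1.36 ± 0.52, Spetex2g at -1.12 ± 0.50, the kinase Map3k10 at -1.08 ± 0.36 and the taste receptor Tas1r1 at -1.06 ± 0.41. Diets overlapped for all 9.

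Among HFD rats the monocyte list mean was 0.84, -0.03, -0.40, -0.48, 0.03 and 0.68 in HFD 1 to 6. The platelet list mean was 0.91, -1.90, -0.28, -0.91, -0.05 and 0.71 in the same rats. Both were highest in HFD 1 and HFD 6, while HFD 2 had the lowest platelet mean with a monocyte mean near 0.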
